A study of Mus musculus with 2 samples.

Results

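RNA polymerase II (Pol II) was followed through 2 crowded stretches of the mouse genome, a 1 Mb stretch of chromosome 10 (79000001 to 80000000) and a 0.79 Mb stretch of chromosome 19 (5000001 to 5790000), called the chromosome 10 and chromosome 19 areas here. All coordinates are on mm8. The members are every window of 500 bp tiled across them from position 1, 2000 on chromosome 10 and 1580 on chromosome 19, or 3580 of 5261350 windows in the genome. The areas were chosen by measured values, the density of windows enriched in both libraries, so their number of enriched windows and summits is a description and not a finding.

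Both samples were chromatin immunoprecipitations sequenced from mouse embryonic fibroblasts, cultured cells of embryonic connective tissue, grown in DMEM with 10% serum. The antibody in each was 8WG16, which recognises the repeat tail of the largest subunit of the enzyme. The 2 libraries make up 1 group, with no treatment and no genotype named, and no input or mock precipitation was analysed here. Library 1 was cut from a gel at 150 to 350 bp and library 2 at 150 to 300 bp, and the labels give each its own run, so effects of the sample, its run and its gel slice cannot be told apart. The labels name no separate cultures, so the spread between the libraries may be technical.

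Pol II gathers at promoters, often pausing shortly after initiation, then spreads more thinly over the gene body and past its end. Where genes are short and close together, the Pol II of one gene can reach the start of the next, and a fragment of sheared DNA cannot tell which gene a polymerase was on. 8WG16 prefers a tail with little phosphorylation, the form most common near promoters, so gene bodies may be under-represented. As background, the chromosome 19 area ends short of Malat1 and Neat1, genes of abundant nuclear noncoding RNAs. In RefSeq's GRCm38.p6 gene table the protein-coding genes on the low-coordinate side of Malat1 include, in order, Ltbp3 (a binding protein of latent TGF-beta), Znrd2, Fam89b, Ehbp1l1, Kcnk7 (a potassium channel), Map3k11 (a kinase upstream of JNK), Pcnx3, Sipa1, Rela (an NF-kappaB subunit) and Kat5 (a histone acetyltransferase). Further on lie Cfl1 (the actin-severing protein cofilin), Mus81 (an endonuclease of DNA repair), Efemp2 (an elastic fibre protein) and Fosl1 (a Fos family transcription factor). That table is of another build, so only the order of names was taken from it, and no summit was assigned to a gene.

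Library 1 had 17548967 reads after repeated starts were collapsed, and library 2 had 10941174. Levels are given in RPM, reads per 1000000 of these. Background was 3.41 reads per window in library 1 (0.194 RPM) and 1.29 in library 2 (0.118 RPM). A window was called enriched at an adjusted p of 0.01 (exact one-sided Poisson test against that background, Benjamini-Hochberg adjustment over 4308660 windows with a read in either library). The smallest called count was 12 reads in library 1 and 7 in library 2. In library 2 a count of 0 still allows up to 3 reads, 2.32 times its background, so an empty window there is not shown to lie under background. The chromosome 10 area held 22950 reads of library 1, 0.131% of them (95% Wilson interval 0.129 to 0.132%), and 17996 of library 2, 0.164% (0.162 to 0.167%). The chromosome 19 area held 17058 and 14532 reads, 0.0972% (0.0958 to 0.0987%) and 0.133% (0.131 to 0.135%). These intervals cover counting error only.

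Across both areas, 871 of 3513 windows with a read were called in both libraries, 24.8%, where the genome had 2.90%. Library 1 called 970 of the 3513 (27.6%, genome 3.41%) and library 2 called 1359 (38.7%, genome 9.02%). The chromosome 10 area held 500 windows called in both and the chromosome 19 area 371. The count depends on the background: measured against the highest of that background and the means of the surrounding 10 kb and 50 kb, which take in the peaks themselves, 102 windows were called in both, and with library 2 alone 1359 were called. Read counts per window ran together in the libraries, with a Pearson r of 0.80 for log2(RPM + 0.1) and a Spearman rho of 0.77 over the 3513 windows. Both libraries share the mappability of each window, and windows are not replicates.

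The edges of the areas differed. On chromosome 10, the megabase to the left (78 to 79 Mb) held 27 windows called in both libraries and 2 summits, and 35.3% of its windows had no read in either library. The megabase to the right (80 to 81 Mb) held 456 such windows and 40 summits, so the crowding ran on past that edge. On chromosome 19, the megabase to the left (4 to 5 Mb) held 289 windows and 33 summits. To the right, the 0.21 Mb up to 6 Mb held 166 windows and 14 summits. That stretch is shorter, and it was denser at 66.7 summits per Mb, against 55.7 in the area itself and 33 to the left. Its share of windows called in both libraries was also higher than in the area (24.1%) and to the left (14.8%). The areas themselves were nearly fully readable: 25 of 2000 windows on chromosome 10 and 42 of 1580 on chromosome 19 had no read.

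**Figure D1:**
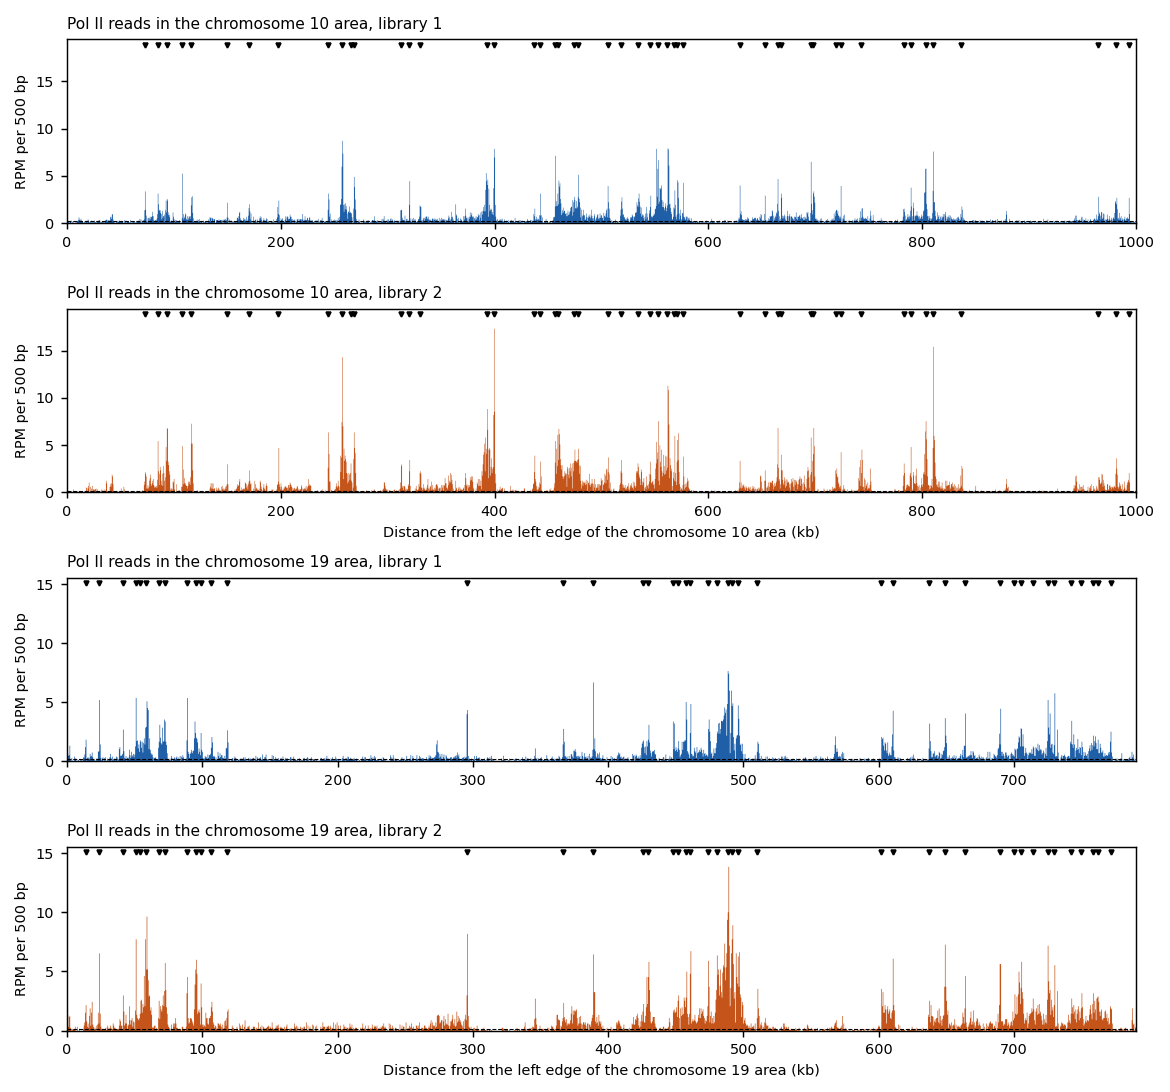
Pol II level (RPM per 500 bp window, vertical axis) along the chromosome 10 and chromosome 19 areas (horizontal axis, kb from the left edge of each area), with 1 panel per library. Triangles mark the 49 and 44 summits and the dashed line is the library's background. Summits were placed on the mean of the libraries, so the triangles are the same in both panels of an area, and chromosome 19 has a stretch without summits between 118 and 295.5 kb.

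Peaks were counted as summits: windows enriched in each library, at 2 RPM or more on average, and topped by none up to 2 kb away. There were 93, 49 on chromosome 10 and 44 on chromosome 19, out of 12010 in the genome. That made 49.0 and 55.7 per Mb, against 4.57 per Mb over the genome. Of 2472 bins of 1 Mb with at least 1000 readable windows, the median held 2 summits, 755 held none and 8 held 40 or more. Only 1 bin, chromosome 19 from 5000001 to 6000000, which contains the chromosome 19 area, held more summits (58) than either area did per Mb.

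The position of a peak was measured again in each library alone. Library 1 by itself gave 78 summits in the areas and library 2 gave 107. Of those of library 1, 64 (82.1%) lay within 500 bp of a summit of library 2, and 48 fell in the same window. Of those of library 2, 59.8% had a summit of library 1 within 500 bp. Over the genome the shares were 83.7% and 40.9%. In bins of 50 bp, the highest point near each of the 93 shared summits differed between the libraries by a median of 50 bp, and by no more than 250 bp at 71 of them.

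Summits of the areas lay closer together than summits elsewhere. The median distance from one summit to the next was 10.5 kb over 91 neighbouring pairs, 12.3 kb on chromosome 10 and 9 kb on chromosome 19, against 34.5 kb over 11898 pairs in the rest of the genome. Distances of 10 kb or less made up 49.5% of the pairs in the areas and 27.1% elsewhere. Very close pairs were less different: 18.7% of the pairs lay 2.5 to 4.5 kb apart in the areas and 12.4% elsewhere. Distances over 50 kb made up 6.59% and 42.5%. The 2 kb rule sets 2.5 kb as the smallest distance that can be seen, and the areas were picked for dense calls, so these values describe them without a test. When a summit needed to be highest only within 1 kb, the areas held 116 summits at a median distance of 7250 bp.

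The closest summits stood 2.5 kb apart. Lowest windows between summits are by the mean of the libraries, here and below. On chromosome 10, the windows from 79568001 and 79570501 had 62 and 81 reads in library 1 and 66 and 61 in library 2. The lowest window between them had 8 and 9 reads. A second such pair, from 79695501 and 79698001, had 115 and 60 reads in library 1 and 64 and 75 in library 2, with 17 and 13 between. In both pairs the gap was visible in each library. On chromosome 19 the closest pairs were 3 kb apart, from 5457501 and 5460501 and from 5488501 and 5491501, followed at 3.5 kb by the pair from 5050501 and 5054001. Another close pair on chromosome 10, from 79265001 and 79268001, was also 3 kb apart, and its gap fell to 1 read in each library. The most distant neighbours on chromosome 10 were the summits from 79836501 and 79964501 (128 kb), from 79330001 and 79392501 (62.5 kb) and from 79576001 and 79629001 (53 kb). On chromosome 19 they were those from 5118001 and 5295501 (177.5 kb), from 5510001 and 5601501 (91.5 kb) and from 5295501 and 5366501 (71 kb).

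Summits were not spread evenly within the areas. Joined wherever neighbours were 10 kb or less apart, 34 of the 49 summits of chromosome 10 formed 14 runs and 35 of the 44 of chromosome 19 formed 10 runs. The runs of chromosome 10 were mostly pairs, with 1 run of 4 or more summits. Chromosome 19 had 5 such runs, which held 24 of its summits. The chromosome 10 area was densest in its middle: from 79500001 to 79600000 it held 9 summits, and 51.5% of the windows were called in both libraries. In the 100 kb at its right end 12.2% were called. The chromosome 19 area alternated. From 5400001 to 5500000 it held 11 summits and 54.8% of windows called, and in the next 100 kb 1 summit and 5.15%. From 5700001 to 5790000, its right end, it held 10 summits and 56.3%.

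The longest run on chromosome 10 went from 79545001 to 79576500, 31.5 kb with 6 summits. Its summit windows had, from left to right, 31, 118, 140, 62, 81 and 76 reads in library 1. In library 2 they had 36, 83, 124, 66, 61 and 42 reads. Both libraries had their highest count of these 6 at the third. The windows between these summits that were lowest by the mean of the libraries had 17, 41, 7, 8 and 6 reads in library 1. In library 2 the same windows had 5, 9, 3, 9 and 5 reads. These need not be the lowest counts of either library alone. In library 1 levels thus dropped to a few reads between the right-hand peaks, while the left part of the run stayed several times over background. Library 2 showed no such contrast, with 5 and 9 reads on the left and 3, 9 and 5 on the right. The window with 41 and 9 reads, from 79553501, was also among the windows that differed between the libraries, described below.

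The strongest run on chromosome 19 went from 5473501 to 5496000, 22.5 kb with 5 summits. Its summit windows had 49, 45, 131, 87 and 84 reads in library 1 and 65, 70, 152, 98 and 69 in library 2. The libraries agreed on the highest, the third, and on the next, the fourth. Between the second and the third, over 8.5 kb, the lowest window had 42 reads in each library. That was 12.3 times background in the first library and 32.5 times in the second. All 16 windows between these 2 summits were called in both libraries. Right of the third the lowest windows had 13 and 2 reads in library 1 and 23 and 8 in library 2. The window with 2 and 8 reads, from 5493501, also held 11 and 15 alignments of reads placed at 2 sites, which were not counted, so part of that dip may be sequence that is not unique. That part was not measured.

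**Figure D2:**
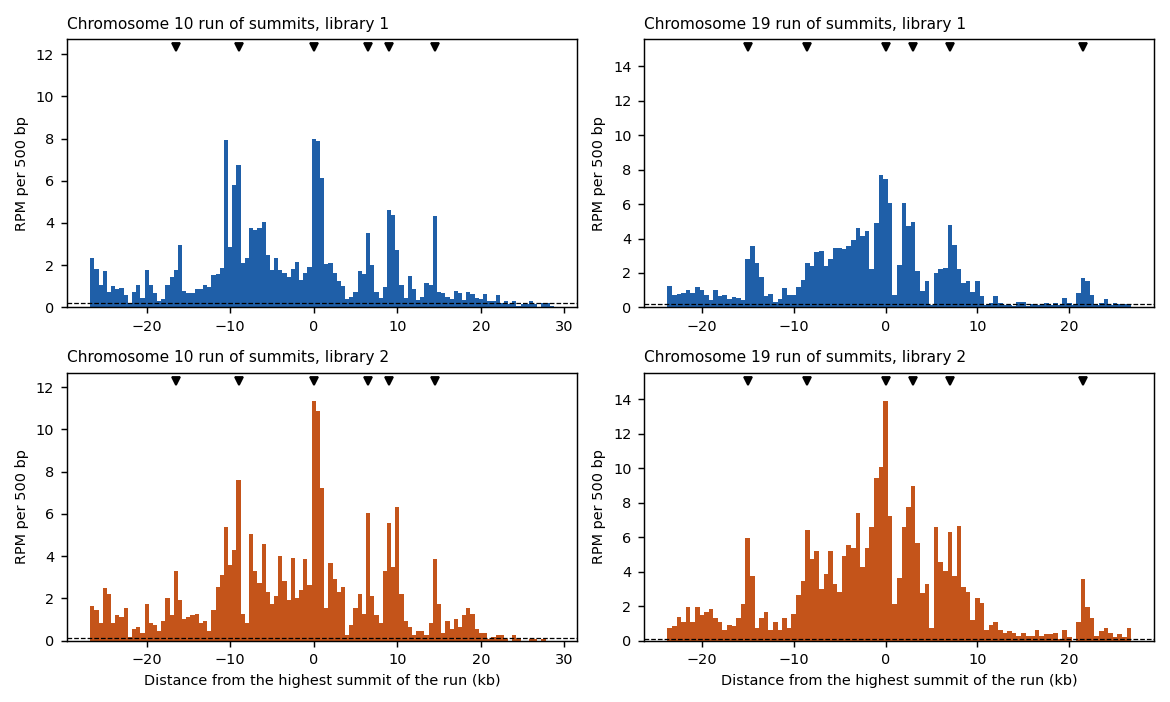
Pol II level (RPM per 500 bp window, vertical axis) around the longest run of summits on chromosome 10 and the strongest on chromosome 19 (horizontal axis, kb from the highest summit of the run), library 1 above and library 2 below. Triangles mark summits and the dashed line background. The chromosome 10 panel shows 6 summits, and the level between the 3 on the left stayed above background, in library 1 by more than further right. The chromosome 19 panel shows a plateau that rises to its highest peak and falls on the right through lower peaks.

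Heights were close to those elsewhere. The median summit of the areas had 4.04 RPM (mean of the libraries), and the median of the rest of the genome 3.42 RPM. By library, the median was 3.19 RPM in library 1 (56 reads, 16.4-fold over background) and 4.57 RPM in library 2 (50 reads, 38.7-fold). The summits between the lower and upper quartiles ran from 2.58 to 5.51 RPM in the areas and from 2.55 to 4.90 RPM elsewhere. The lowest, at 2.02 RPM on chromosome 10 and 2.03 RPM on chromosome 19, sat at the edge of the 2 RPM rule. The highest had 12.6 RPM, and elsewhere in the genome summits reached 57.1 RPM. At 72 of the 93 the level in RPM was higher in library 2, as at 9752 of 12010 over the genome. This direction rests on the scaling: by the total in jointly called windows, the median log2 ratio of library 2 to library 1 at the 93 was -0.19.

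The highest summit lay on chromosome 10 from 79399001 to 79399500. Library 1 had 139 reads there (7.92 RPM) and library 2 190 (17.4 RPM), a mean of 12.6 ± 6.68 RPM (SD, n = 2). The window from 79257001 had 154 and 157 reads, 11.6 ± 3.94 RPM, and the window from 79810001 had 134 and 169 reads, 11.5 ± 5.52 RPM. These 3 overlapped within the spread between the libraries, so their order is not fixed. Next came the windows from 79561501 with 140 and 124 reads (9.66 ± 2.37 RPM) and from 79552501 with 118 and 83 reads (7.16 ± 0.61 RPM). All 5 reached 34.6 times background or more in the first library and 64.3 times in the second.

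On chromosome 19 the highest summit lay from 5488501 to 5489000, with 131 and 152 reads and 10.7 ± 4.55 RPM. The 4 that followed were close to each other. The window from 5058501 had 90 and 106 reads (7.41 ± 3.22 RPM), and the window from 5491501 had 87 and 98 (6.96 ± 2.83 RPM). The window from 5388501 had 118 and 71 reads (6.61 ± 0.17 RPM), and the window from 5050501 had 95 and 85 (6.59 ± 1.67 RPM). The 4 means lay within the SD of the first, so their order is not fixed. The window from 5388501 had no other summit within 20 kb.

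Peaks were narrow. The run of windows at 50% of the summit's height or more, background subtracted, had a median width of 1000 bp in the areas and 1000 bp elsewhere. It was 1 window at 27 of the 93 summits (29.0%, elsewhere 37.0%) and 2000 bp or wider at 20 (21.5%, elsewhere 22.1%). In bins of 50 bp, smoothed over 3 bins, the median width at 50% of the height was 300 bp in the areas and 300 bp elsewhere, with quartiles from 200 to 500 bp and from 200 to 450 bp. The labels give sonication to a mean of 500 bp and shearing to 50 to 200 nt. Sites closer than the fragment length cannot be resolved, and how far either step widened the peaks was not measured. The widest in windows of 500 bp were summits on plateaus, from 5480001 (10000 bp), 5054001 (8500 bp) and 79474501 (7500 bp). In the finer bins their peaks were 450, 300 and 750 bp wide. The window from 5054001 had only 30 and 28 reads, so its bins of 50 bp hold few. Counting error may make such fine widths too small, which was not measured. The widest in fine bins was the window from 79534001, at 2100 bp.

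Enriched windows joined into 160 regions, 94 on chromosome 10 and 66 on chromosome 19. Their median width was 1500 bp, and 30.6% were a single window, against 500 bp and 51.4% over the genome. Regions of 5 kb or more made up 15.6% here and 5.86% over the genome. The widest, 25 kb on chromosome 10 from 79455501 to 79480500, held 4 summits and averaged 4.94 ± 1.31 RPM per kb (SD, n = 2), 10.3 times background in the first library and 24.8 times in the second. The next on chromosome 10 ran from 79544001 to 79565500 (21.5 kb, 3 summits, 5.69 ± 0.70 RPM per kb) and from 79383001 to 79401000 (18 kb, 2 summits, 5.72 ± 2.14 RPM per kb). On chromosome 19 the region from 5477501 to 5499500 (22 kb) held 4 summits at 7.68 ± 2.61 RPM per kb. It was followed by 2 regions of 12 kb, from 5050001 to 5062000 with 5.29 ± 1.49 RPM per kb and from 5753501 to 5765500 with 2.98 ± 0.76 RPM per kb. Each of these 6 wide regions held more than 1 summit.

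Between neighbouring summits Pol II often fell to a level not called enriched. For each of the 91 pairs the window with a read that was lowest by the mean of the libraries was taken. Its level, background subtracted, was set against the lower of the summits. The median valley was 3.55% of the lower summit (1.61% in library 1 and 4.24% in library 2). On chromosome 10 it was 0.72% and on chromosome 19 7.95%. The median is close to 0 and its sign was not stable: with summits of library 1 alone it was -1.23%, and with the local background -0.75%. At 63 pairs (69.2%) the valley was called in neither library, at 14 in 1 and at 14 (15.4%) in both. Elsewhere 79.6% were called in neither and 10.8% in both, and the median valley was -3.25%. It was under 10% of the lower summit at 63 pairs and 50% or more at 4. Valley counts had a median of 1.17 times background in library 1 and 2.32 times in library 2. They were under background in both libraries at 31 of the 91 pairs, and at 7495 of 11898 elsewhere. The lowest of many windows is low by selection, and more so the further apart the summits are.

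At matched distances the valleys of the areas were lower than elsewhere by median in the 2 closer classes and about equal in the third. For the 17 pairs 2.5 to 4.5 kb apart the median valley was 18.6%, and for 1479 such pairs in the rest of the genome it was 35.8%. For the 28 pairs 5 to 10 kb apart it was 9.13%, against 13.1% for 1748. For the 24 pairs 10.5 to 20 kb apart it was 0.49%, against -0.57% for 1477. In the closest class the areas differed: the median was 17.6% for the 7 pairs of chromosome 10 and 34.6% for the 10 of chromosome 19, the latter close to the rest of the genome. The quartiles of the closest class ran from 10.4 to 41.4% in the areas and from 18.8 to 51.4% elsewhere, so the spreads overlapped widely. Valleys called in both libraries made up 58.8% of the closest class in the areas and 56.0% elsewhere. No test was made of these differences.

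**Figure D3:**
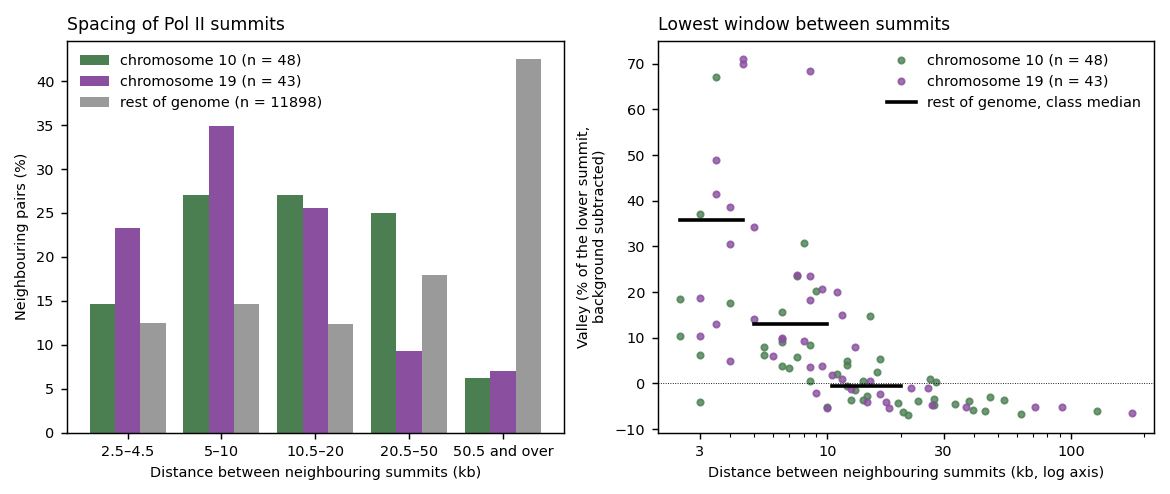
Left: share of neighbouring summit pairs (%, vertical axis) by the distance between them (kb classes, horizontal axis) in the chromosome 10 area, the chromosome 19 area and the rest of the genome. Right: the lowest window between 2 summits (% of the lower summit, background subtracted) against their distance (kb, log axis), 1 point per pair, with black bars for the median of the rest of the genome in 3 distance classes; valleys of 50% or more occur at 4 pairs, all less than 10 kb apart.

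The shallowest valleys joined peaks that shared a plateau. On chromosome 19, the summits from 5067501 and 5072001 had 30 and 60 reads in library 1 and 28 and 63 in library 2, and the lowest window between them had 26 and 18 reads, 71.1% of the lower summit. The summits from 5054001 and 5058501 had 30 and 90 reads in library 1 and 28 and 106 in library 2, with a valley of 14 and 25 reads (70.02%). The libraries differed there: the valley was 39.8% of the lower summit in library 1 alone and 88.8% in library 2 alone. The pair from 5480001 and 5488501, with a valley of 42 reads in each library (68.4%), belongs to the strong run described above. On chromosome 10, the summits from 79474501 and 79478001 had 44 and 91 reads in library 1 and 50 and 51 in library 2, with 29 and 35 between (67.1%). In each of these 4 pairs the lower summit was under 4.5 RPM. Apart from the pair from 5054001, each library alone put the valley at 59.2% or more. Valleys between the summits from 79456501 and 79459501 (37.2%) and from 79257001 and 79265001 (30.6%) followed on chromosome 10.

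The deepest valleys, by percent of the lower summit, had 1 or 2 reads in library 1 and none in library 2. On chromosome 10 they lay between the summits from 79698001 and 79719501, from 79330001 and 79392501 and from 79149501 and 79170001. On chromosome 19 they lay between the summits from 5118001 and 5295501, from 5013501 and 5023501 and from 5429501 and 5447501. Other valleys had counts as low, such as that between the summits from 79093001 and 79107501 (1 and 0 reads, -2.82%). Under background the percent falls further where the lower summit is lower. This order thus reflects low summits and not emptier valleys. Background predicts 3.41 and 1.29 reads in such a window, so these counts are not told apart from background at this depth. At 17 of the 91 pairs at least 1 window between the summits had no read in either library and could not serve as a valley.

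Some stretches within the areas held no region called in both libraries. The longest ran on chromosome 19 from 5119001 to 5273000, 154 kb with 1274 reads in library 1 (1.21-fold over background) and 884 in library 2 (2.22-fold). It still held 1 window called in library 1 and 20 called in library 2. On chromosome 10 it ran from 79879001 to 79943000, 64 kb at 0.918-fold and 0.750-fold. The 55.5 kb from 5511501 to 5567000 stood at 1.17-fold and 1.75-fold, with 1 and 6 windows called, and the 49.5 kb from 5296001 to 5345500 at 0.927-fold and 1.08-fold. On chromosome 10 the 48.5 kb from 79580501 to 79629000 stood at 0.997-fold and 0.974-fold, and the 40.5 kb from 79837501 to 79878000 at 1.21-fold and 0.946-fold. By these values library 2 stood well above its background in the first and the third of these 6 stretches. The other 4 were within 1.21-fold of it or under it in both libraries. These folds are over all windows of a stretch, also those with no read, which background leaves out, so they are too low. The stretch from 5296001 had 13 windows with no read, the most of the 6. Over the areas as a whole, windows not called in a library averaged 1.46 times background in the first library and 1.73 times in the second.

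Away from a summit the mean level fell steeply and then stayed raised. With both sides averaged and background subtracted, library 1 was at 49.6% of the summit and library 2 at 50.3% at 0.5 kb, and they were at 30.1% and 31.8% at 1 kb. In the rest of the genome it was 41.1% and 46.3%, then 23.5% and 31.4%. At 5 kb it was 20.2% and 20.97% in the areas, against 13.6% and 19.9% elsewhere. The areas differed there: chromosome 10 was at 15.5% and 16.3%, under the rest of the genome in library 2, and chromosome 19 at 26.0% and 26.6%. At 10 kb it was 18.9% and 20.02%, against 11.3% and 16.7%. On chromosome 19 it was 23.7% and 24.4% at 10 kb, and on chromosome 10 15.0% and 16.4%. These means include neighbouring peaks. The difference from the rest of the genome was larger in library 1 than in library 2, and on chromosome 10 the level in library 2 was no higher than elsewhere at 5 and 10 kb.

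**Figure D4:**
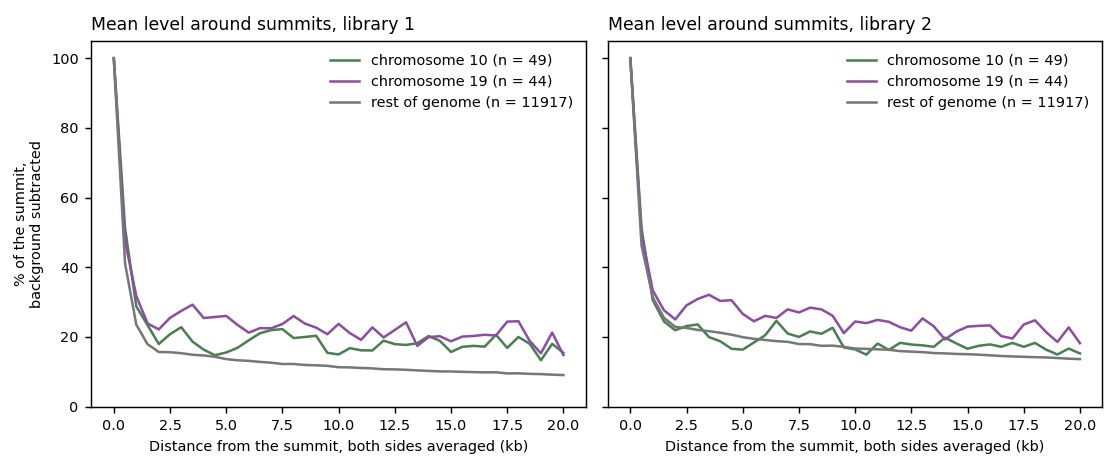
Mean Pol II level around summits (% of the summit, background subtracted, vertical axis) against the distance from the summit (kb, left and right averaged, horizontal axis) in each library, for the 49 summits of chromosome 10, the 44 of chromosome 19 and 11917 in the rest of the genome. The lines have no error bars; the chromosome 19 line lies above the rest of the genome at 5 and 10 kb in both libraries.

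Pol II was often heavier on one side of a summit. The flanks, 1 to 5 kb left and right, were compared within each library (two-sided exact binomial test, Benjamini-Hochberg adjusted over all 12010 summits, threshold 0.01). In library 1 64 of the 93 summits had unequal flanks (genome 46.8%), and in library 2 66 had (genome 58.7%). At 57 (61.3%) they were unequal to the same side in both libraries, where the genome had 40.2%. None of the 93 was unequal to opposite sides, 16 passed in 1 library only and 20 in neither. Of the 12010 over the genome, 20 were unequal to opposite sides, 2963 passed in 1 library only and 4193 (34.9%) in neither. Of the 57, 31 leaned to higher coordinates (genome 20.5% of summits) and 26 to lower (genome 19.8%). With the side taken from library 1, library 2 had more reads on it at 63 of 64 summits (98.4%, genome 97.5%). With the side taken from library 2, library 1 had more at 64 of 66 (97.0%, genome 96.0%). The areas were thus close to the genome in this agreement.

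The size of the imbalance differed less from the rest of the genome than the share that passed. The median ratio of fuller to emptier flank was 1.87 in the areas and 1.77 elsewhere, and it was 2 or more at 45.2% and 42.8% of summits. The flanks held more reads in the areas, a median of 235 in library 1 and 196 in library 2 for the left and right together, against 140 and 144 elsewhere. More reads make an equal imbalance easier to detect. How much of the higher share this gives was not tested.

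Neighbouring peaks lay in many of these flanks. Of the 57 summits, 22 had another summit less than 5 kb away on the fuller side only, 1 on the emptier side only, 2 on both and 32 on neither. In the rest of the genome the fuller side alone held one at 25.6% of such summits, and here at 38.6%. Among the 61 summits of the areas with no other summit less than 5 kb away, 32 (52.5%) were still unequal to the same side in both libraries, against 36.7% of such summits elsewhere. Among the 32 with one, 25 were (78.1%), against 52.4% elsewhere. Flanks of 1 to 2 kb lie within the distance over which a summit is highest. With these, 18 of the 93 were unequal to the same side in both libraries (19.4%, genome 14.7%), and with flanks of 1 to 3 kb 25 were. Of the 14 unequal at both 1 to 2 kb and 1 to 5 kb, 13 leaned to the same side at each (genome 1460 of 1494). The exception was the summit from 79265001, whose near flank was fuller on the left and whose far flank, which holds the higher summit 3 kb away, was fuller on the right.

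**Figure D5:**
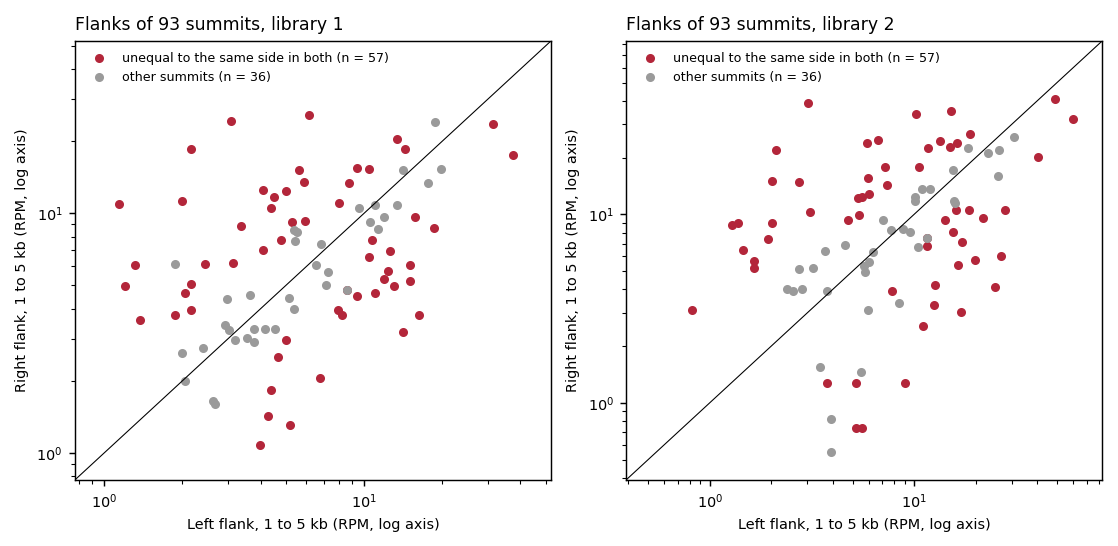
Reads 1 to 5 kb to the right of each of the 93 summits (RPM, log axis, vertical) against those 1 to 5 kb to the left (RPM, log axis, horizontal) in library 1 and library 2; the line marks equal flanks. The 57 summits unequal to the same side in both libraries lie on both sides of the line, 31 above it and 26 below.

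The most one-sided summit was on chromosome 10 from 79456501, at the left end of the 25 kb region. It had 54 reads on the left and 428 on the right in library 1, and 33 and 424 in library 2 (adjusted p 2.7e-71 and 1.0e-85, exact binomial test, ratio of the mean flanks 10.4), with a summit 3 kb to its right. The near flanks leaned the same way, with 25 against 66 reads and 17 against 82. The summit from 79107501 had 23 against 107 and 14 against 96 reads (ratio 5.74), and no other summit within 5 kb. The summit from 79993001 leaned left, with 75 against 25 and 61 against 8 reads (ratio 4.57). On chromosome 19 the 3 most one-sided summits all leaned right. The summit from 5067501 had 38 against 325 reads in library 1 and 23 against 241 in library 2 (ratio 9.50), with a summit 4.5 kb to its right. The summit from 5601501 had 20 against 192 and 22 against 164 reads (ratio 8.23). It stood at the right end of a gap of 91.5 kb between summits and had none within 5 kb. The summit from 5447501 had 35 against 197 and 30 against 163 reads (ratio 5.52), with a summit 4 kb to its right. All 6 passed in both libraries, and 5 of them also with flanks of 1 to 2 kb, the exception being 79993001.

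Equal flanks were of more than one kind. The summit from 79561501, within the chromosome 10 run, had 248 and 266 reads in library 1 and 252 and 232 in library 2. The summit from 5457501 had 194 and 191 reads in library 1 and 169 and 189 in library 2, and the summit from 5451501 had 209 and 169, and 131 and 149. The summit from 79545001 had 120 and 131, and 84 and 90. The summit from 5366501 had 42 and 48, and 66 and 61, and the summit from 79330001 had 53 and 57, and 41 and 43. The first 4 thus had well-filled flanks on both sides and the last 2 thinner ones. Equal far flanks did not mean equal near ones: the summit from 5457501 had 64 against 25 reads at 1 to 2 kb in library 1 and 50 against 19 in library 2, both past the threshold.

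The libraries differed at few windows of the areas, and in 1 direction. With counts scaled by the total in jointly called windows, 20 of 1458 windows called in either passed a two-sided exact binomial test (Benjamini-Hochberg adjusted over 410963 windows, threshold 0.01). All 20 (1.37%) were higher in library 1 (genome 0.550% of windows) and none higher in library 2 (genome 0.567%). Of the 20, 13 were on chromosome 10 and 7 on chromosome 19. The 273 windows on a summit or beside one held 10 (3.66%, where such windows of the genome had 4.04% higher in library 1). The other 10 were among 1185 windows further from summits (0.844%, genome 0.236%). The direction rests on the scaling: by all reads, 3 windows stood higher in library 1 and 74 stood higher in library 2. With all reads kept, 41 were higher in library 1 and 2 in library 2. In the window from 79551001 library 1 had 139 reads and library 2 59, a scaled ratio of 2.41 (95% exact interval 1.77 to 3.33, adjusted p 3.5e-06). Its count in library 1 is 1 read under that of the highest summit of the run, yet it is no summit by the mean of the libraries. The window from 5068001 had 55 and 11 reads (ratio 5.12, 2.65 to 10.8), and the window from 79980001 had 42 and 6 (ratio 7.17, 3.03 to 20.6). Since each side is a single library, this test takes in counting error alone and says nothing of conditions. These 3 windows were picked after their values were seen.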

How the data were processed

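Both deposited files list read alignments, 1 signed left-most offset per read. Per the file headers the authors aligned with Bowtie to mm8 (-e 70 -k 2 -m 2 -n 2 -l 36 --best); no source used here gives its version. Reads that fit more than 2 sites are lost, so repeats are under-represented.

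Single-site reads of the nuclear chromosomes were collapsed to 1 per start and strand (36 bases long, offsets taken from 0), and 5′ ends were shifted 60 bp downstream and counted in windows of 500 bp. Background was the mean over uncalled windows, recomputed in 3 rounds. Regions join called windows with at most 1 window between. Every test ran over the whole genome and was tried on counts simulated with the Poisson or binomial error it assumes. Such counts cannot show spread beyond counting error or uneven mappability. Widths, valleys and flanks are as defined in the report. Named items are, in each area, the 5 highest summits and, by distance, valley, region width and flank ratio, the 3 at each end or the 3 largest. The members and rules were chosen with earlier results of these data known. Fine bins, runs, distance classes and summits per library were added after the data were seen. No genome sequence of mm8 was used here, so no sequence is shown. Alternatives covered repeated reads, each library alone, threshold, background, tiling, shift, summit distance, flanks, reads placed at 2 sites and scaling. Computing used SciPy 1.17.1 and NumPy 2.4.6 under Python 3.11.15, and plotting matplotlib 3.10.9.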

Additional observations from a re-analysis of the deposited data

Results flagged for a closer look

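Reads placed at 2 sites, which the comparisons did not use, were present in the areas. With repeated starts collapsed, the chromosome 10 area held 497 such alignments in library 1 and 362 in library 2, and the chromosome 19 area 455 and 326, each above the 3 that a count of 0 allows. They came to 2.17% and 2.01% of the reads placed at 1 site on chromosome 10 and to 2.67% and 2.24% on chromosome 19, less than the 5.71% and 4.79% of the genome. The window from 5415501 on chromosome 19 held 39 and 27 of them beside 4 and 0 reads placed at 1 site. The window from 79397501 on chromosome 10, 3 windows left of the highest summit, held 16 and 12 beside 22 and 28. Of the windows with no read placed at 1 site, 5 of 25 on chromosome 10 and 11 of 42 on chromosome 19 held such alignments in library 1, and 4 and 8 in library 2.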

How the results depend on the processing

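Of 54 alternatives to the values that answer a comparison, 37 stayed within the limits set for a close value. These limits were wide: for counts, a fixed fold, and for medians, the SD between the values with 1 library left out. Those values thus helped set the limit that they were judged by. The 37 include 585 windows called at a threshold of 0.0001 (871 reported) and 64 summits against the local background (93 reported). They also include summit spacings of 8500 and 13250 bp with 1 library left out (10500 bp reported). Against the local background 102 windows were called in both libraries, summit spacing was 15250 bp, height 4.74 RPM, valley level -0.75% and 36 summits were one-sided. With 1 library left out, windows called ranged from 970 to 1359, height from 3.59 to 3.75 RPM, valley level from -1.23 to 3.26% and one-sided summits from 51 to 74. Height was 4.30 RPM with all reads kept, 3.74 RPM with the windows tiled from another position and 3.599 RPM where a summit had to be highest within 1 kb, where the valley level was 7.98%. Flanks of 1 to 2 kb gave 18 one-sided summits and flanks of 1 to 3 kb gave 25. Scaling by all reads turned the direction of the windows that differ between the libraries, with 77 in place of 20 (3 higher in library 1, 74 in library 2), and keeping all reads gave 43. The causes of these shifts were not tested. The number of summits ranged from 78 to 107 with 1 library left out, and was 25 on chromosome 19 against the local background. The median width was 1000 bp under every alternative run. Leaving out a library could not be run for the difference between libraries. No paired analysis was possible because there is 1 group. At 1.29 reads of background per window in library 2, levels under background cannot be measured.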
